A study of Mus musculus with 9 samples.

Results

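Genes of ribosome biogenesis were examined in RNA-seq values of RAW264.7 cells, a mouse macrophage-like line of leukemic origin. The 46 genes were chosen by symbol, and each symbol was matched to an Ensembl identifier of the deposited table through GENCODE M21 (mouse genome GRCm38). All 46 were found among 28137 identifiers, of which 27533 have a name in that annotation. They were sorted by known function into 6 roles, namely 3 proteins of box C/D snoRNPs, 5 of box H/ACA snoRNPs and snoRNP assembly, 2 abundant nucleolar proteins, 3 genes of RNA polymerase I and its regulation, 17 small subunit assembly factors and 16 large subunit assembly factors. The values come from 9 libraries in 3 groups of 3, in which the cells received negative control (NC) siRNA, SFRP2 siRNA or RAB6A siRNA. In every group, the NC group included, 60 nM siRNA was delivered with Lipofectamine 8000 for 6 h, complete medium followed for 12 h, and LPS, a bacterial activator of macrophages, was then given at 100 ng/ml for 24 h. Untransfected cells and cells without LPS were not analysed here. The study's methods give other transfection settings and add interferon gamma, and the labels were followed here. The labels do not say whether libraries of a group came from separate cultures, so p-values measure the spread between these libraries, which may be technical. The treatment label of the SFRP2 siRNA libraries names SFRP2, and their titles say only siRNA with a number from 1 to 3. The study lists 3 SFRP2 siRNAs numbered in the same way. Whether each library received a different siRNA is left unsaid, and no sequence is given in the sources used here for the RAB6A siRNA.

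Ribosomes are built largely in the nucleolus, where RNA polymerase I transcribes ribosomal DNA into a long precursor RNA. Small nucleolar ribonucleoproteins (snoRNPs) modify this precursor, those of the box C/D class by methylation and those of the box H/ACA class by turning uridine into pseudouridine, while a large set of assembly factors cuts, folds and escorts the precursors of the small and large subunits. Many of these genes are textbook targets of MYC, a growth-promoting transcription factor that binds the E-box motif CACGTG.

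The gene expression values are FPKM, fragments scaled to gene length and library size, so that levels can be compared between genes. Because each library pools the RNA of many cells, fewer cells that use a gene and less RNA of it per cell cannot be told apart. FPKM is also relative to the total of a library, so a change in it is not a change in the amount of RNA per cell. Read numbers recovered from the values gave 32758729 to 47149258 reads per library, and 45 of the 46 genes had whole read numbers in all libraries. Rab6a was at 24.3, 27.3 and 25.5 FPKM in the NC libraries, 26.6, 28.6 and 25.8 with SFRP2 siRNA and 21.2, 20.7 and 20.4 with RAB6A siRNA, and fell by 0.31 on the log2 scale in the latter against NC (SE 0.0603, adjusted p = 0.0024, limma). In that comparison 36.5% of all genes tested were lower and 12.8% fell by more than 1. A fall this small therefore cannot by itself check the RAB6A siRNA label. Sfrp2 was between 0.0197 and 0.0567 FPKM in all 9 libraries, which is too low to check the SFRP2 siRNA label. Of 10 macrophage markers, 9 had a mean above 0.5 FPKM in every group, while the lists of fibroblast, endothelial, epithelial and lymphocyte markers each summed to at most 3.45 FPKM in any library. Of the 9 macrophage markers tested, Lyz2 (log2 fold change -2.04), Csf1r (-1.44), Spi1 (-1.05) and Fcgr1 (-0.75) were lower with RAB6A siRNA than in NC, Ptprc (0.17) was higher and 4 did not pass the test, with a median of -0.14. The share that was lower, 44.4%, lay near that of all genes tested, of which 36.5% were lower and 37.6% higher. A log2 fold change below -1 was met by 3 of the 9 (33.3%), against 12.8% of all genes tested. With only 9 genes, these counts are not read as a result about the markers. In the RAB6A siRNA group mitochondrially encoded genes took 16.8% to 19.7% of all FPKM against 19.9% to 22.9% in NC and 22.3% to 26.9% with SFRP2 siRNA. Within this sum the genes did not move alike. With RAB6A siRNA mt-Co1 was the highest gene, at 61560, 54680 and 59860 FPKM. The highest value of any gene was 24780 FPKM in the NC libraries and 28120 FPKM in the SFRP2 siRNA libraries. The part of these differences in the results below was not tested.

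In the NC group the 46 genes ranged from 7.64 to 871 FPKM with a median of 23.9, whereas the median of all genes tested was 5.13 FPKM. Npm1 (871 ± 17.3 FPKM, mean ± SD, n = 3) stood highest, followed by Ncl (395 ± 23.3) and Nhp2 (153 ± 2.42), and these 3 genes did not overlap with each other or with any gene below them. The next genes, Mybbp1a (97.6 ± 1.81) and Nolc1 (96.3 ± 8.41), overlapped and could not be ordered. At the low end were Nop9 (9.05 ± 0.427), Polr1b (8.41 ± 0.558) and Wdr12 (7.64 ± 0.0184). The summed level of the 46 genes was 2832 ± 40.0 FPKM in the NC group, 2854 ± 32.7 with SFRP2 siRNA and 1489 ± 124 with RAB6A siRNA (SD, n = 3). This sum was 0.770% of all FPKM in the NC group, 0.776% with SFRP2 siRNA and 0.366% with RAB6A siRNA. Without Npm1 and Ncl, which dominate it, the sum was 1566 FPKM, 1561 FPKM and 651 FPKM, respectively.

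**Figure D1:**
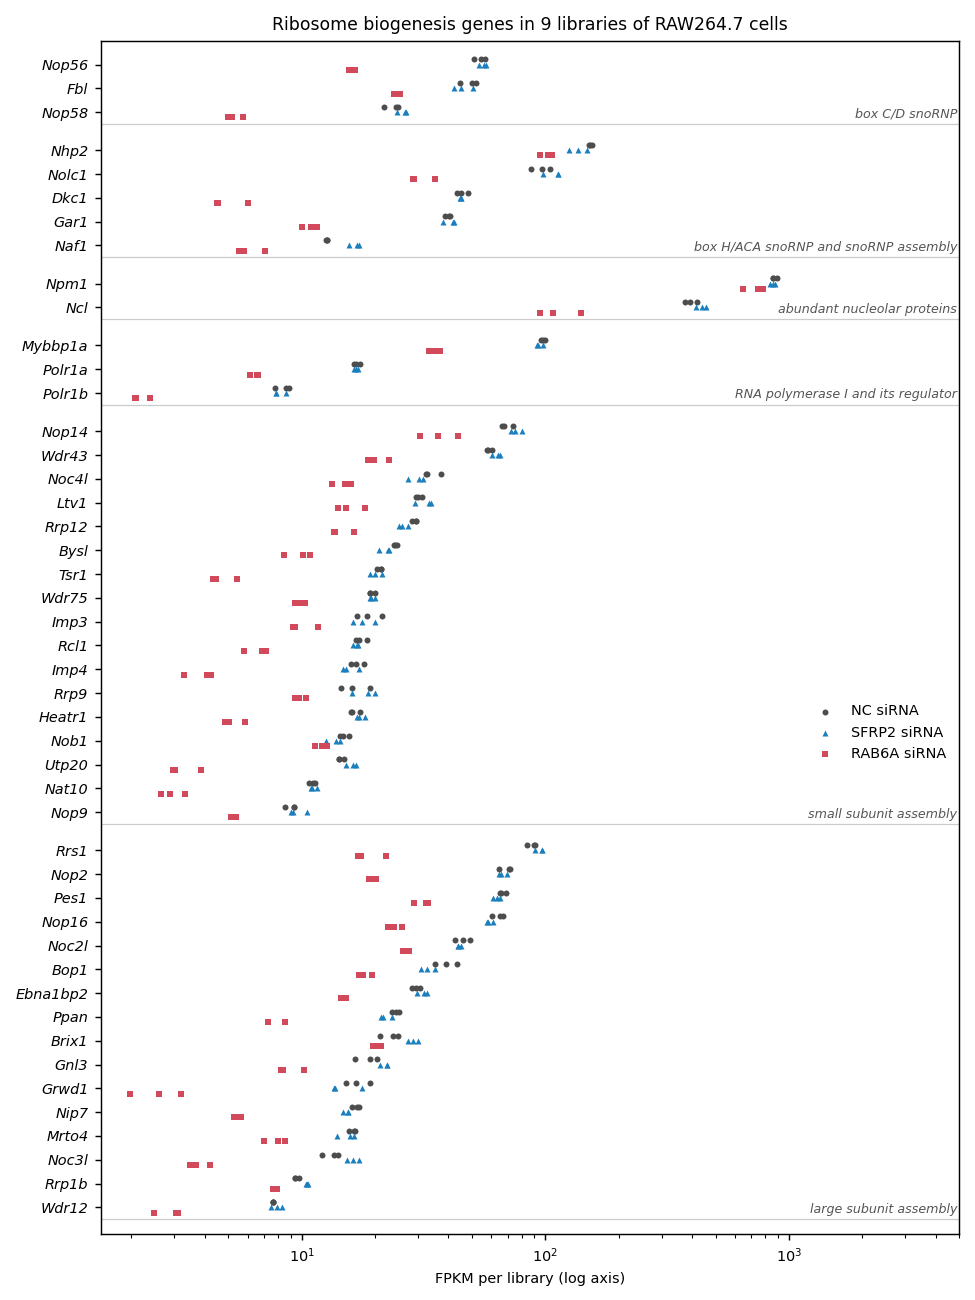
FPKM of each ribosome biogenesis gene in each of the 9 libraries on a log axis, grouped by role and sorted by the NC mean, with circles for NC siRNA, triangles for SFRP2 siRNA and squares for RAB6A siRNA. The squares lie to the left of all circles for 45 of 46 genes, and the triangles lie among or close to the circles.

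In the RAB6A siRNA group nearly the whole set was expressed at a lower level. Of the 46 genes, all of which passed the filter on low values, 45 were lower than in NC at an adjusted p under 0.05 (limma, Benjamini-Hochberg over 12712 genes) and 0 were higher, where 36.5% of all genes tested were lower and 37.6% higher. A log2 fold change below -1 was also met by 31 of the 46 genes, against 12.8% of all genes tested. The median log2 fold change of the 46 genes was -1.38, that of all genes tested was 0.03, and the members ranged from -3.17 (Dkc1) to -0.19 (Brix1). The 3 RAB6A siRNA libraries lay below the 3 NC libraries for 45 genes, as they did for 38.2% of all genes tested. For such a gene an exact two-sided permutation test gives p = 0.1, the smallest value that 3 libraries against 3 allow. Per library, the median deviation of the 46 genes from the NC mean was -1.50, -1.28 and -1.30 on the log2 scale in the RAB6A siRNA replicates and between -0.02 and 0.03 in the 6 other libraries. RAB6A siRNA replicate 1 was the lowest of its group for 30 genes and replicate 3 the highest for 30 genes.

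**Figure D2:**
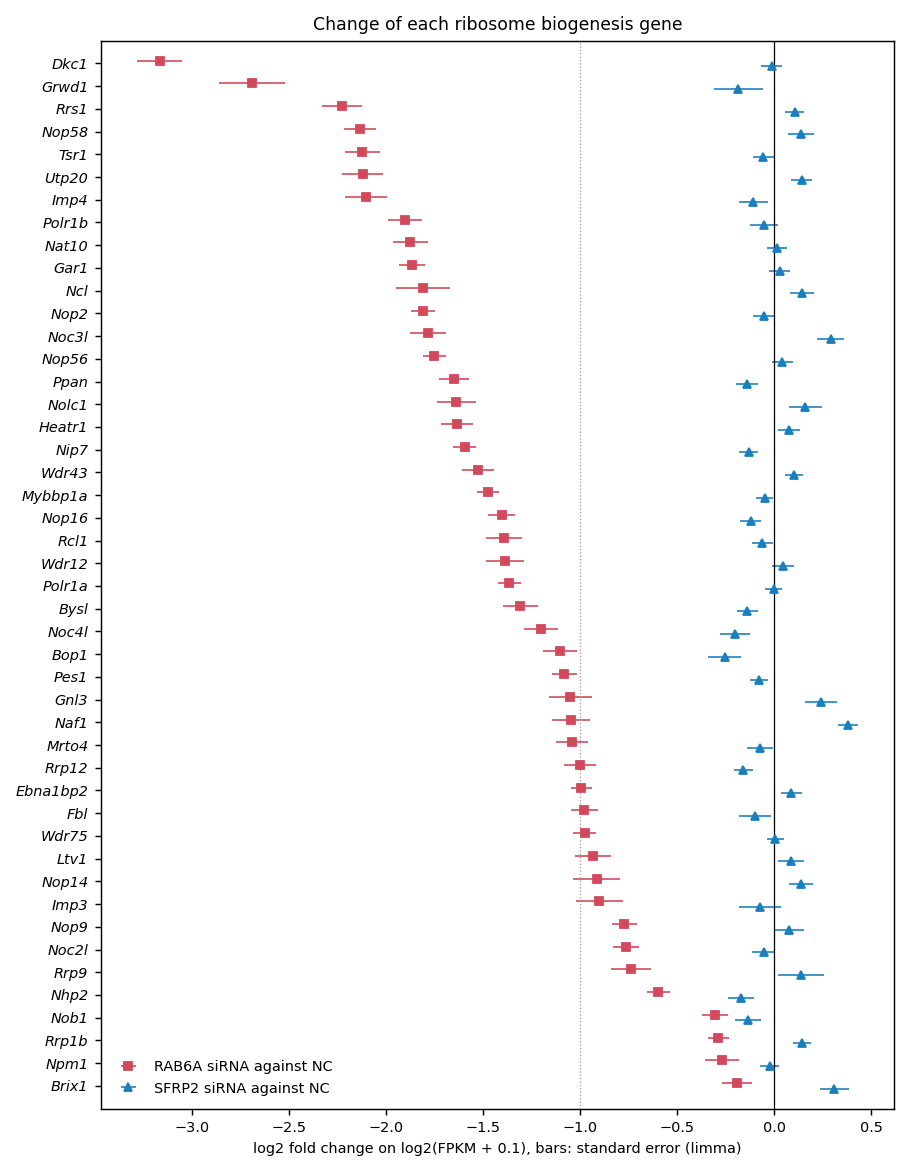
Log2 fold change of each ribosome biogenesis gene with its standard error (limma, 3 libraries per group), with squares for RAB6A siRNA against NC and triangles for SFRP2 siRNA against NC, sorted by the former, and a dotted line at -1. All 46 squares lie below 0, from -3.17 to -0.19, and the triangles spread on both sides of 0 from -0.25 to 0.38.

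Promoter sequences were matched by symbol for 40 of the 46 genes, as RefSeq windows on GRCm38.p6 from 250 bases before to 50 bases after the RefSeq start. Both strands of each window were searched for the E-box CACGTG, which reads the same on either strand. It was found for 9 of the 40 genes (22.5%), compared with 8.09% of 27025 genes with a window and 12.1% of the 8483 of these tested for RAB6A siRNA against NC. Of 112 other ribosome biogenesis genes with a window, from the lists described below, 21 had it (18.8%). The share is thus not particular to the genes examined here. The stretches that hold it are shown because MYC, known to bind this motif, is itself among the genes that fell, as described below. In each 30-base stretch the capitals mark the E-box, the sequence is that of the gene's strand, and the distance to the first base of the E-box counts from the RefSeq start, which can differ from the gene bounds of GENCODE.
Grwd1 (35 bases after the start, log2 fold change -2.69): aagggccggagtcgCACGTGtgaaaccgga
Imp4 (121 bases before the start, log2 fold change -2.10): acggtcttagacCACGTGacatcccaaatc
Ltv1 (29 bases after the start, log2 fold change -0.93): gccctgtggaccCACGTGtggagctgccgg
Mybbp1a (41 bases after the start, log2 fold change -1.48): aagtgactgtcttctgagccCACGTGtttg
Nop2 (60 bases before the start, log2 fold change -1.81): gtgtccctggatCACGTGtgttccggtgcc
Pes1 (3 bases after the start, log2 fold change -1.08): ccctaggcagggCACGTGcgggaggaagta
Tsr1 (25 bases after the start, log2 fold change -2.12): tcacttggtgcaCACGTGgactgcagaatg
Utp20 (38 bases after the start, log2 fold change -2.12): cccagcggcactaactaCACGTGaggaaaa
Wdr43 (18 bases after the start, log2 fold change -1.53): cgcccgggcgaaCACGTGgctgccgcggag
The E-box lay before the start in Imp4 and Nop2 and after it in the other 7 genes. The windows lie at chr7:45830740-45830769 (Grwd1, - strand), chr1:34439696-34439725 (Imp4, + strand), chr10:13193092-13193121 (Ltv1, - strand), chr11:72441347-72441376 (Mybbp1a, + strand), chr6:125131811-125131840 (Nop2, + strand), chr11:3963965-3963994 (Pes1, + strand), chr11:74898092-74898121 (Tsr1, + strand), chr10:88826765-88826794 (Utp20, - strand) and chr17:71616220-71616249 (Wdr43, + strand) on GRCm38.p6. Genes with an E-box had a median log2 fold change of -1.81 in the RAB6A siRNA group (n = 9, from -2.69 to -0.93), and the 31 genes without it had a median of -1.37 (from -3.17 to -0.19). These ranges overlap, and Dkc1, the gene with the lowest log2 fold change, was among those without the motif in the window. The ETS-type motif CCGGAAGT was present in 11 of the 40 windows (27.5%) against 10.4% of the genes tested, and CCAAT in 13 (32.5%) against 43.3%, on either strand, and none of the 3 motifs contains another. Among the 112 other ribosome biogenesis genes, 29 had the ETS-type motif (25.9%) and 44 had CCAAT (39.3%). A match describes these letters in this window and does not show a binding site.

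Box H/ACA snoRNPs carried the lowest value of the set. Dkc1 (ENSMUSG00000031403, chromosome X, 75095854 to 75109777, + strand) encodes dyskerin, the pseudouridine synthase of these particles and a part of telomerase. It was at 48.3, 45.1 and 43.2 FPKM in the NC libraries, 45.2, 44.6 and 45.2 with SFRP2 siRNA and 4.55, 4.50 and 6.02 with RAB6A siRNA. The RAB6A siRNA libraries stood far below the other 6, at 11% of the NC mean (log2 fold change -3.17, SE 0.116, adjusted p = 1.34e-06, limma). At least 681 reads stood behind Dkc1 in each RAB6A siRNA library. Gar1, a partner of dyskerin in the mature particle, went from 40.4, 40.1 and 38.8 FPKM in NC to 10.03, 10.96 and 11.6 with RAB6A siRNA (-1.87, adjusted p = 1.23e-06, limma). Nhp2, another core protein, was at 156, 151 and 152 FPKM in NC and 102, 107 and 94.6 with RAB6A siRNA, the smallest change of this role (-0.60, adjusted p = 7.62e-05, limma). Naf1, which holds the place of Gar1 during assembly, went from 12.7, 12.7 and 12.6 to 5.51, 5.77 and 7.08 FPKM (-1.05), and Nolc1, a nucleolar chaperone of snoRNPs, from 104, 97.2 and 87.5 to 28.8, 28.7 and 35.3 FPKM (-1.64). All 5 genes of this role were lower, 4 of them with a log2 fold change below -1.

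All 3 genes of box C/D proteins fell. Nop58 (ENSMUSG00000026020, chromosome 1, 59684971 to 59719044, + strand), a core scaffold protein, was at 24.7, 24.4 and 21.7 FPKM in NC, 26.5, 26.8 and 24.6 with SFRP2 siRNA and 5.00, 5.16 and 5.76 with RAB6A siRNA. Its log2 fold change was -2.13 against NC (SE 0.0815, adjusted p = 1.49e-06, limma), with no overlap between the groups. Nop56, the related scaffold protein, went from 56.5, 54.5 and 50.8 to 15.7, 15.7 and 16.5 FPKM (-1.75). Fbl, which encodes the methyltransferase fibrillarin, went from 44.7, 50.1 and 52.1 to 23.98, 25.3 and 25.1 FPKM (-0.98) and thus stayed at 50.6% of its NC mean, where Nop58 stayed at 22.5%. Nop56 and Nop58 contain snoRNA genes within their bounds, and so do Ncl, Ppan and Gnl3. At most 2.44% of the exon bases of any of them are shared with a single snoRNA. Several snoRNAs lie in Nop56, with shares of 2.44%, 2.10%, 1.76% and 1.71%, and more than 1 in Ppan, Gnl3 and Ncl. The part of snoRNA reads in these values was not tested.

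The genes of the abundant nucleolar proteins differed from each other. Ncl encodes nucleolin, which binds ribosomal precursor RNA, and Npm1 encodes nucleophosmin, a histone and ribosome chaperone. Ncl was at 391, 420.3 and 374 FPKM in NC and 94.6, 108 and 140.1 with RAB6A siRNA (-1.81, SE 0.138, adjusted p = 1.73e-05, limma). Npm1 was at 859.9, 891 and 861 FPKM in NC and 648, 744 and 782 with RAB6A siRNA, and its log2 fold change was -0.27 (SE 0.0861, adjusted p = 0.0231, limma). The Npm1 groups did not overlap, but its call was lost without any of NC replicates 1, 2 and 3 (log2 fold change from -0.28 to -0.25) or RAB6A siRNA replicate 1 (-0.19), with adjusted p from 0.0536 to 0.0778 (limma). It was also lost without the filter on low values, where the log2 fold change was the same (adjusted p = 0.114, limma), and after correction for GC content and length, where it was -0.07 (adjusted p = 0.441, limma).

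RNA polymerase I genes fell together. Polr1a and Polr1b encode the paired large subunits that form the active site. Polr1a went from 17.3, 16.3 and 16.7 FPKM in NC to 6.16, 6.55 and 6.64 with RAB6A siRNA (-1.37), and Polr1b from 8.62, 7.78 and 8.83 to 2.08, 2.38 and 2.08 FPKM (-1.90). Mybbp1a, a nucleolar protein that regulates RNA polymerase I and precursor processing, went from 95.9, 97.4 and 99.5 to 33.3, 34.9 and 36.95 FPKM (-1.48). Each of the 3 genes had a log2 fold change below -1, and their adjusted p-values were 2.05e-06, 2.54e-06 and 1.54e-06 (limma).

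All 17 small subunit assembly factors were lower with RAB6A siRNA, 9 of them with a log2 fold change below -1, and their median was -1.20. Tsr1 (ENSMUSG00000038335, chromosome 11, 74898071 to 74909342, + strand), a late factor on small subunit precursors, was at 20.3, 21.1 and 21.1 FPKM in NC, 19.9, 18.97 and 21.4 with SFRP2 siRNA and 4.46, 4.34 and 5.41 with RAB6A siRNA (-2.12, SE 0.0902, adjusted p = 1.89e-06, limma). Of its exon bases, 32.3% are shared with Srr on the opposite strand, and whether strand was used in counting is not given in the sources used here. Utp20, a giant scaffold protein of the early small subunit processome, went from 14.9, 14.2 and 14.2 to 3.01, 2.97 and 3.84 FPKM (-2.12). Imp4, a protein of the U3 snoRNP, went from 15.97, 16.6 and 18.04 to 3.28, 4.09 and 4.24 FPKM (-2.10), while its partner Imp3 went from 18.5, 21.4 and 16.9 to 9.23, 11.7 and 9.38 FPKM (-0.90). Nat10, an RNA acetyltransferase, went from 11.4, 10.7 and 11.1 to 2.66, 2.88 and 3.31 FPKM (-1.88). Processome proteins with a WD or HEAT repeat fold were Heatr1 (-1.63), Wdr43 (-1.53) and Wdr75 (-0.97). Further log2 fold changes were -1.39 for Rcl1, -1.20 for Noc4l, -0.91 for Nop14, -0.77 for Nop9 and -0.74 for the U3 protein Rrp9. Of the exon bases of Nop9, 29.9% are shared with Cideb on the opposite strand. The export and late maturation factors Bysl (-1.31), Rrp12 (-0.9991) and Ltv1 (-0.93) lay within the same range. Nob1, the endonuclease of the final cut, changed least. It was at 14.7, 14.3 and 15.7 FPKM in NC and 12.1, 11.4 and 12.7 with RAB6A siRNA, which did not overlap (-0.30, adjusted p = 0.00411, limma). After correction for GC content and length it was no longer called (log2 fold change -0.08, adjusted p = 0.333, limma).

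Large subunit assembly factors spanned the widest range within a single role after box H/ACA, with a median of -1.25. Grwd1 (ENSMUSG00000053801, chromosome 7, 45825223 to 45830944, - strand), a chaperone of a ribosomal protein, was at 19.1, 15.1 and 16.8 FPKM in NC, 17.7, 13.6 and 13.7 with SFRP2 siRNA and 1.97, 3.20 and 2.60 with RAB6A siRNA. The latter group lay below the others without overlap (-2.69, SE 0.171, adjusted p = 7.97e-06, limma), with at least 147 reads per library. Rrs1 (ENSMUSG00000061024, chromosome 1, 9545408 to 9547455, + strand) helps to place the smallest ribosomal RNA into the large subunit. It was at 89.8, 90.3 and 84.1 FPKM in NC, 90.3, 97.1 and 96.9 with SFRP2 siRNA and 16.99, 17.4 and 22.2 with RAB6A siRNA (-2.23, SE 0.105, adjusted p = 2.63e-06, limma). Nop2, an RNA methyltransferase, went from 71.1, 64.6 and 71.4 to 18.8, 20.1 and 19.9 FPKM (-1.81), and Noc3l, which works with Noc2l, from 14.1, 13.6 and 12.1 to 3.48, 4.19 and 3.67 FPKM (-1.78). Noc2l itself had a log2 fold change of -0.77, and 20.9% of its exon bases are shared with Samd11 on the opposite strand. It was also the only member without whole read numbers. The PeBoW complex, needed for large subunit precursor processing, had log2 fold changes of -1.08 (Pes1), -1.10 (Bop1) and -1.39 (Wdr12). Values for other factors were -1.65 for Ppan, -1.60 for Nip7, -1.40 for Nop16, -1.05 for Gnl3 (nucleostemin), -1.04 for Mrto4 and -0.99 for Ebna1bp2. Rrp1b was lower by a small amount (9.40, 9.71 and 9.42 FPKM in NC and 7.65, 7.90 and 7.78 with RAB6A siRNA, -0.29, adjusted p = 0.00213, limma), and was not called after correction for GC content and length (log2 fold change -0.08, adjusted p = 0.204, limma). Brix1, an assembly factor that acts with Ebna1bp2 at an early step, did not pass the test. Its values were 24.9, 23.7 and 20.9 FPKM in NC and 19.99, 19.5 and 21.1 with RAB6A siRNA, which overlapped (log2 fold change -0.19, SE 0.0774, adjusted p = 0.0529, limma).

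Partners within a particle were compared by the ratio of their FPKM in each library, for 10 pairs chosen after their values were seen, so no test is given. The ratio of Dkc1 to Nhp2 was 0.310, 0.299 and 0.284 in NC, 0.307, 0.330 and 0.362 with SFRP2 siRNA and 0.0446, 0.0422 and 0.0636 with RAB6A siRNA. The RAB6A siRNA libraries thus lay apart from the other 6. Dkc1 to Gar1 had a mean of 1.14 ± 0.0444 in NC and 0.461 ± 0.0549 with RAB6A siRNA (SD, n = 3), and Nop58 to Fbl of 0.485 ± 0.0688 and 0.214 ± 0.0139. Polr1b to Polr1a was 0.501 ± 0.0256 in NC and 0.338 ± 0.0254 with RAB6A siRNA, and Noc3l to Noc2l was 0.291 ± 0.0383 and 0.140 ± 0.0123. In 9 of the 10 pairs the RAB6A siRNA and NC libraries did not overlap. The exception was Bop1 to Pes1, both of the PeBoW complex, at 0.590 ± 0.0479 in NC and 0.580 ± 0.0439 with RAB6A siRNA. The plot of partners as percent of the NC mean shows the same unequal RNA levels for single genes, together with Snu13 (log2 fold change -1.04) and Nop10 (-0.48), whose proteins complete the box C/D and box H/ACA cores. Protein levels were not measured here.

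**Figure D3:**
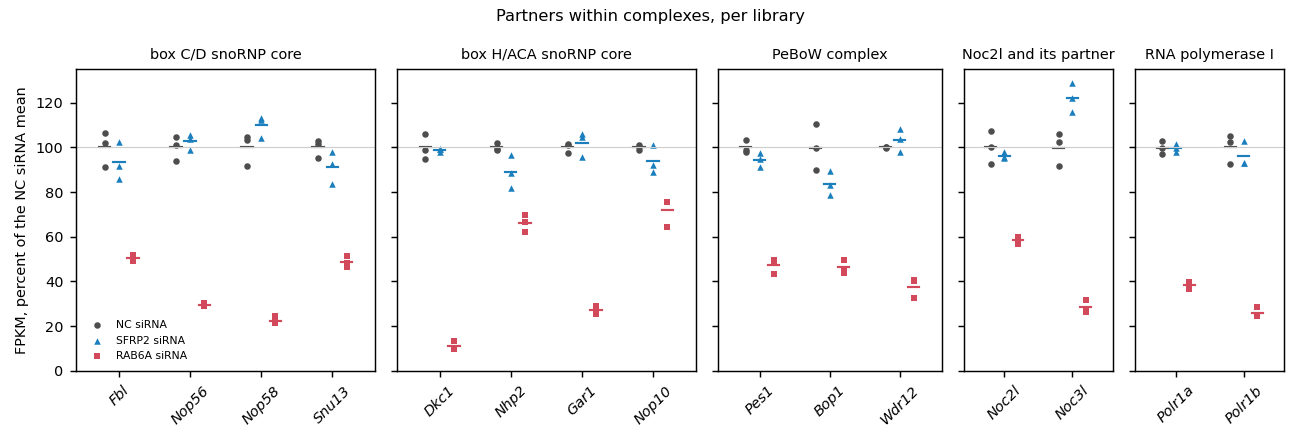
FPKM of partners within 5 complexes in each library as percent of the NC mean of the gene, with points for libraries and short lines for group means. In the RAB6A siRNA group Dkc1 stood at 11% and its partner Nhp2 at 66.2%, while Pes1 (47.2%) and Bop1 (46.3%) lay side by side.

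Against the SFRP2 siRNA libraries in place of the NC libraries, 45 of the 46 genes were again lower with RAB6A siRNA and 0 higher, where 35.8% of 12764 genes tested were lower. A log2 fold change below -1 was met by 32 genes (13.3% of all genes tested), and the median was -1.35. Both comparisons share the RAB6A siRNA libraries and are not independent. The 5 lowest were Dkc1 (-3.15, SE 0.113), Grwd1 (-2.50, SE 0.184), Rrs1 (-2.33, SE 0.106), Nop58 (-2.27, SE 0.0739) and Utp20 (-2.26, SE 0.109), with adjusted p-values of 2.23e-06, 2.24e-05, 4.09e-06, 1.84e-06 and 4.69e-06 (limma). Here Brix1 was called (-0.50, adjusted p = 0.000214, limma), since it stood at 27.4, 29.9 and 28.7 FPKM with SFRP2 siRNA, and Nob1 was not (-0.17, adjusted p = 0.067, limma).

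SFRP2 siRNA gave a different picture. Against NC, 0 of the 46 genes and 0 of 12017 genes tested passed an adjusted p of 0.05 with limma, so that 0.0% is the background in either direction. The study itself, by DESeq2, a test on read counts, reported genes changed in both directions by SFRP2 siRNA in polarized RAW264.7 cells. No gene was called here by limma on FPKM, and the reason for the difference from the study was not tested. At an unadjusted p under 0.05, 7 of the 46 genes were lower, against 10.7% of all genes tested, and 6 were higher, against 7.73%. The SFRP2 siRNA and NC libraries did not overlap for 7 genes that were lower (13.9% of all genes tested) and 7 that were higher (10.9%). These shares lie little above the background and are not read as a result about these genes. The median log2 fold change was -0.01, both for the 46 genes and for all genes tested. The 3 smallest p-values among higher genes belonged to Naf1, Brix1 and Noc3l. Naf1 was at 12.7, 12.7 and 12.6 FPKM in NC and 15.6, 17.2 and 16.8 with SFRP2 siRNA (0.38, SE 0.0517, unadjusted p = 0.000143, adjusted p = 0.14, limma). With voom on the recovered reads Naf1 was called, as the single member among 41 genes. Brix1 went from 24.9, 23.7 and 20.9 FPKM in NC to 27.4, 29.9 and 28.7 (0.31, adjusted p = 0.178, limma), and Noc3l from 14.1, 13.6 and 12.1 to 16.2, 17.1 and 15.4 FPKM (0.29, adjusted p = 0.178, limma). For these genes all SFRP2 siRNA libraries lay above the NC libraries. On the lower side, Rrp12 had a log2 fold change of -0.16, Bop1 of -0.25 and Nip7 of -0.13, with adjusted p-values of 0.196, 0.208 and 0.232 (limma). Dkc1, the lowest gene with RAB6A siRNA, had a log2 fold change of -0.01 with SFRP2 siRNA (SE 0.0516).

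The log2 fold change in the SFRP2 siRNA group varied with the GC content of the gene. Over the 46 genes the Spearman correlation with GC content was -0.50, and over 11903 genes tested with a known GC content it was -0.482. These points share the same libraries, and the correlation is a description. Naf1, Brix1 and Noc3l have a GC content of 48.0%, 41.6% and 43.7%, and Bop1 and Rrp12 of 58.2% and 55.8%. Nip7 went against this trend, with a GC content of 45.4%, below that of Naf1, and a log2 fold change of -0.13. In the RAB6A siRNA group against NC the same correlation was 0.139 over the 46 genes and 0.0785 over 12535 genes tested.

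**Figure D4:**
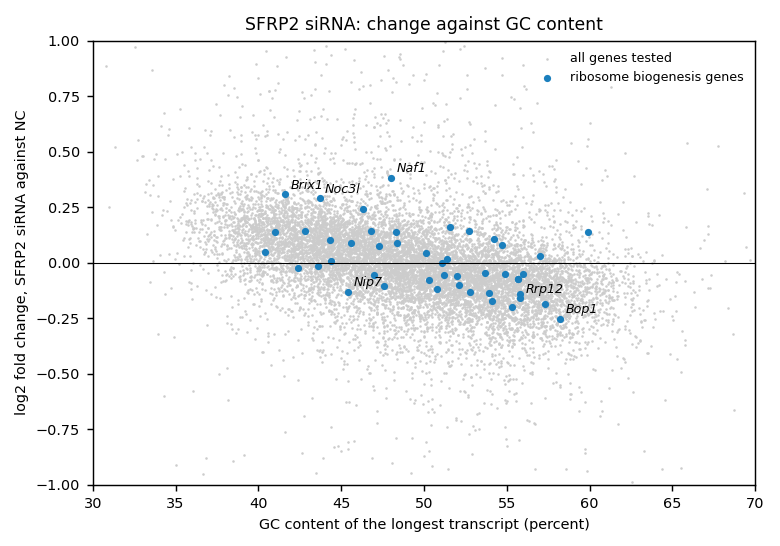
Log2 fold change of SFRP2 siRNA against NC (limma) plotted against GC content of the longest transcript, for all genes tested (grey) and the ribosome biogenesis genes (blue), with the 6 named genes labeled and 120 genes outside the drawn range. Genes of low GC content tend to lie above 0 and genes of high GC content below it, with a Spearman correlation of -0.482 for all genes and -0.50 for the 46.

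Other genes of ribosome production were read from lists kept apart from the 46. Of 134 further ribosome biogenesis genes in 5 lists, 131 were tested, 102 were lower and 15 higher with RAB6A siRNA against NC, with a median log2 fold change of -0.76 and 45 genes below -1. Of all genes tested 36.5% were lower, 37.6% higher and 12.8% below -1. By list, 7 of 13 genes of RNA polymerase I and rDNA transcription were lower, 7 of 9 snoRNP genes, 33 of 43 small subunit factors, 38 of 43 large subunit factors and 17 of 23 processing nucleases. Among those without overlap, the lowest were Mdn1, an ATPase that remodels large subunit precursors (17.2, 15.9 and 17.4 FPKM in NC, 2.16, 2.12 and 2.63 with RAB6A siRNA, -2.82, SE 0.0951, adjusted p = 1.12e-06, limma), Pop1, a protein of RNase P and RNase MRP (-2.55), and Pwp2, a processome protein (-2.35). The highest were Nop53, a nucleolar factor of large subunit assembly (20.1 ± 0.127 FPKM in NC and 53.6 ± 2.86 with RAB6A siRNA, mean ± SD, n = 3, 1.41, SE 0.0569, adjusted p = 1.66e-06, limma), Polr1d, a subunit shared by RNA polymerases I and III (1.22), and Nufip1, a snoRNP assembly factor (1.05). Thus Polr1d rose where Polr1a and Polr1b fell. In the SFRP2 siRNA group 0 of the 131 genes passed the test, and 12 in each direction had an unadjusted p under 0.05 (limma), against 10.7% of all genes tested that were lower and 7.73% that were higher.

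RNA of the genes for proteins of the ribosome itself moved the other way. Of 79 cytosolic ribosomal protein genes, 75 were higher and 0 lower with RAB6A siRNA against NC, with a median log2 fold change of 1.11 and 48 genes above 1, where 37.6% of all genes tested were higher and 17.3% above 1. After quantile normalization 70 were higher and 4 had a negative value, and after correction for GC content and length 72 were higher and 2 had a negative value, with 0 called lower by either. Several of them are listed at low levels, such as Rpl21 at 1.07 to 1.59 FPKM with RAB6A siRNA, and ribosomal protein genes have near-identical pseudogenes between which counting could split reads. Aminoacyl-tRNA synthetases, which charge tRNAs, were lower for 16 of 20 and higher for 0, where 36.5% of all genes tested were lower and 37.6% higher. Their median was -0.51, and after correction for GC content and length 13 were lower and 1 higher. Of 78 mitochondrial ribosomal protein genes 23 were lower and 29 higher, with a median of 0.12. The share that was lower, 29.5%, lay near that of all genes tested, and these counts are not read as a result about the list. In the SFRP2 siRNA group, 37 of the 79 cytosolic ribosomal protein genes were lower at an unadjusted p under 0.05 and 0 higher, against 10.7% and 7.73% of all genes tested. Their median was -0.16, and 0 passed the adjusted threshold (limma).

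**Figure D5:**
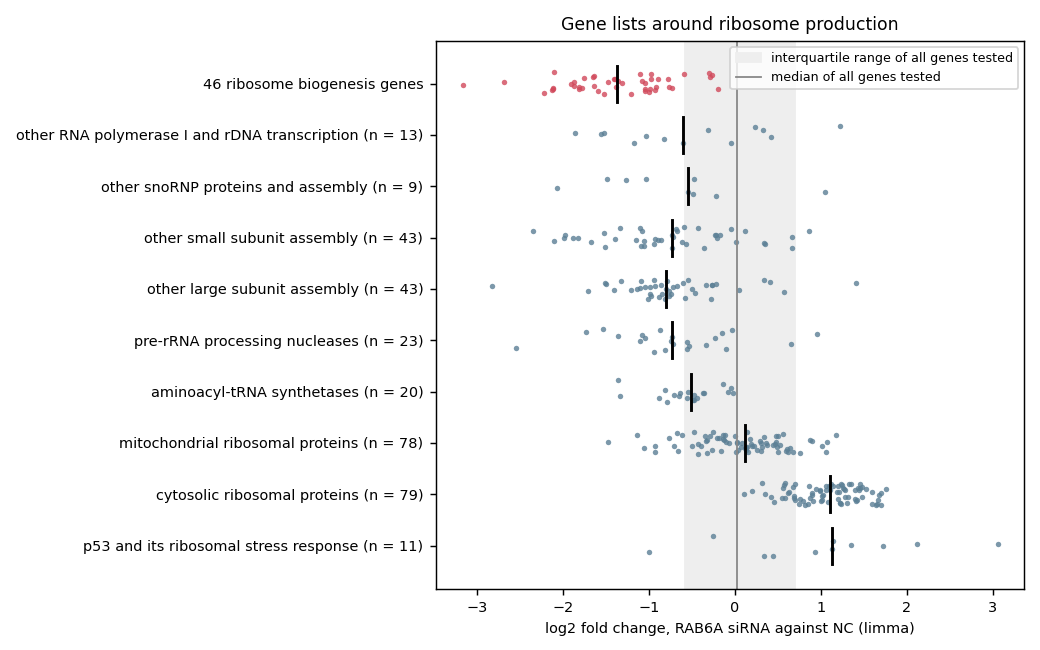
Log2 fold change of RAB6A siRNA against NC (limma) for the 46 ribosome biogenesis genes and further lists, with a point per gene, a black line at each median, and a grey band and line for the interquartile range and median of all genes tested. The 46 genes center on -1.38, the further biogenesis lists between -0.80 and -0.54, and the cytosolic ribosomal proteins on 1.11.

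Myc was at 92.99, 90.9 and 92.5 FPKM in the NC libraries, 94.1, 93.9 and 98.1 with SFRP2 siRNA and 6.32, 6.16 and 5.76 with RAB6A siRNA, and its log2 fold change was -3.90 with RAB6A siRNA (SE 0.0557, adjusted p = 1.55e-07, limma) and 0.05 with SFRP2 siRNA. Of 8 tested genes of the Myc network, Myc, its partner Max (-0.68) and Mlx (-0.23) were lower, and the MAX-binding repressors Mxd1 (0.81), Mxi1 (0.95) and Mnt (0.51) were higher. The 3 lower genes (37.5%) and 3 higher genes lie near the shares of all genes tested, 36.5% lower and 37.6% higher. These counts are not read as a result about the list, and only Myc had an absolute log2 fold change over 1. The part of Myc in the fall of the 46 genes was not tested. Of 11 genes of the p53 response, which defective ribosome assembly is known to trigger, 9 were higher and 2 lower with RAB6A siRNA, where 37.6% of all genes tested were higher and 36.5% lower. Chosen after their values were seen, Bbc3, a pro-apoptotic target (3.06), Mdm4 (2.12) and Mdm2 (1.72), inhibitors of p53, and Cdkn1a, a cell cycle inhibitor (1.13), were among those higher, whereas Trp53 itself was lower (-1.004). Of these 11 genes 0 passed the test with SFRP2 siRNA, where 1 in each direction had an unadjusted p under 0.05 (limma).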

How the data were processed

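RNA-seq of RAW264.7 cells was analysed in 9 libraries, grouped by the treatment in their labels. The values deposited by the authors are FPKM. Per the labels, HISAT2 and featureCounts (Subread) were used, and libraries were paired-end mRNA-seq. Versions, genome build, annotation and strand setting are not given in the sources used here. Genes were named by Ensembl identifier from GENCODE M21, and 604 identifiers without a name were kept in the fits.

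Log2(FPKM + 0.1) was compared in R 4.3.3 by limma 3.58.1, using lmFit and a trended eBayes. Genes had to average 0.5 FPKM or more in the 6 libraries compared, and p-values were adjusted by Benjamini-Hochberg over all genes tested. A call needed an adjusted p under 0.05. Fold changes on this scale understate those of low genes. FPKM multiplied by exon length gave whole reads within 0.03 of a read in all libraries for 98.4% of named genes, and these reads gave the depth and a voom alternative. Both steps were tested on simulated data. The members and gene lists were chosen with earlier results of these data known. Members singled out were the 5 with the lowest log2 fold change among those called without overlap. Where no member was called, they were those with the 3 smallest p-values in each direction. Of 5 further biogenesis lists, the 3 highest and 3 lowest genes called without overlap were named. Standard errors and p-values are given for some of these genes only. Alternatives were other pseudocounts, filters, scalings and fits, a replicate block, a correction for GC content and length, and leaving out each library. Promoter windows are from RefSeq (GRCm38.p6).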

Additional observations from a re-analysis of the deposited data

How the results depend on the processing

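With RAB6A siRNA against NC, 42 to 46 of the 46 genes were called over 18 alternatives and 27 to 35 had an absolute log2 fold change over 1; against SFRP2 siRNA these numbers were 44 to 46 and 27 to 34. The median log2 fold change was -1.38 against NC, and -1.25 with a pseudocount of 1, -1.29 after quantile normalization and -1.23 after correction for GC content and length, with or without the replicate block. When single libraries were left out it ranged from -1.41 to -1.29. Against SFRP2 siRNA it was -1.24 with a pseudocount of 1, -1.18 after the correction, with or without the replicate block, and -1.39 to -1.29 with single libraries left out. The correction lost the calls of Nob1, Npm1 and Rrp1b against NC, and gave Npm1 a log2 fold change of 0.03 against SFRP2 siRNA; the cause was not tested. For SFRP2 siRNA against NC, voom called 1 member and 41 genes, the correction called 2 genes and leaving out NC replicate 1 called 1 gene. Members with an unadjusted p under 0.05 numbered 0 to 11 lower and 4 to 13 higher: 11 and 12 with the replicate block, 1 and 8 with the correction, and 3 and 13 after quantile normalization. Without SFRP2 siRNA replicate 2, 0 were lower, and without NC replicate 3, 1 was lower.

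Replicate numbers are shared between groups, but deviations of same-numbered libraries correlated between -0.06 and 0.05, so the numbers were not taken to pair the libraries. With the replicate block, 45 members were called in either comparison of RAB6A siRNA and 0 for SFRP2 siRNA. Every member with whole reads had at least 147 reads in each library.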
